A study of Mus musculus with 8 samples.

Results

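Antiviral restriction factors are host proteins that block a step of viral replication from inside the infected cell. The RNA of 9 of them was followed here: Mx1, Mx2, Bst2, Rsad2, Cmpk2, Samhd1, Apobec3, Eif2ak2 and Adar. They were picked by name from the 49315 genes of the count table, with their difference between the groups already known, so that difference is described below and carries no test. All 9 were among the 13051 genes that passed the filter on low counts.

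The data were bulk RNA-Seq libraries from bone marrow-derived macrophages (BMDMs) of C57BL/6 mice, which are primary cells grown out of marrow with M-CSF, a macrophage growth factor, at 10 ng/ml. Every culture was transfected with a gapmeR, an antisense oligonucleotide that directs RNase H to cut its target RNA, at a labelled 25 nM with Lipofectamine 3000. The control group received a negative control gapmeR (4 libraries, replicates 2, 5, 6 and 7). The other group received a gapmeR against MAARS, a macrophage long noncoding RNA (4 libraries, replicates 9, 11, 13 and 15). The sources do not say whether the libraries of a group came from separate animals or cultures, so p-values measure only the spread between these libraries. No untransfected culture was compared, and each group had its own oligonucleotide, so loss of MAARS and other effects of that oligonucleotide cannot be told apart.

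Most restriction factors are interferon-stimulated genes. Type I interferon binds the receptor made of Ifnar1 and Ifnar2, the kinases Jak1 and Tyk2 phosphorylate transcription factors that include Stat2, and Stat2 acts with Irf9 in the complex ISGF3, which binds the interferon-stimulated response element (ISRE) in promoters. Macrophages are known for a low, steady interferon tone that keeps such genes on without infection. The 9 genes act by different means: Mx1 and Mx2 are dynamin-like GTPases, Rsad2 and Cmpk2 alter the nucleotide pool, Bst2 tethers budding virions, Samhd1 destroys dNTPs, Apobec3 deaminates viral DNA, Eif2ak2 (PKR) stops translation on sensing dsRNA, and Adar edits dsRNA.

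Promoter sequence was read from RefSeq (GRCm38.p6) for the 7 genes with an entry, from 250 bases before to 50 bases after each listed start; Mx1 and Mx2 had none in the table used. The windows were searched on both strands for an ISRE core, made of GAAA, any pair of bases and GAAA again (TTTC, a pair of bases and TTTC in the reverse orientation). It was found in 4 of the 7 genes, Bst2, Rsad2, Apobec3 and Eif2ak2, against 3.99% of the 27025 genes with a promoter entry (3.44% of all 32851 promoters). The matches are shown because genes that share this run of letters had differences between the groups of widely unlike size. Each is given on its gene's strand, 5′ to 3′, with the matching letters in capitals. The Bst2 run holds a pair of overlapping matches from 130 bases before the start (chr8:71537580-71537609, minus strand). Rsad2 matched 120 bases before (chr12:26456553-26456582, minus strand) and Apobec3 140 bases before (chr15:79892258-79892287, plus strand), both in the reverse orientation. The Apobec3 match belongs to its first listed start, and the window of its second listed start held no match. Eif2ak2 matched 18 bases after its start (chr17:78882535-78882564, minus strand). In Adar the capitals mark a shorter motif, GAAANNGAA, 33 bases after the third listed start (chr3:89730738-89730767, plus strand).
Bst2: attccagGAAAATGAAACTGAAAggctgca
Rsad2: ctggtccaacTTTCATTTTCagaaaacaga
Apobec3: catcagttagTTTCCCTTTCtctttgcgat
Eif2ak2: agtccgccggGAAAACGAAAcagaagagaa
Adar: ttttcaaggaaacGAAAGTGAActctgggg

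The shorter motif, tried after the data had been seen, was present in 5 of the 7 genes, against 9.76% of all genes (8.56% of promoters). Every match to the longer core is also a match to it. A gamma-activated site (GAS) motif, TTCNNNGAA, was present in 4 of the 7 (Bst2, Samhd1, Eif2ak2 and Adar), against 9.55% of all genes (8.3% of promoters). The Cmpk2 window held none of these letters and the Samhd1 window held only the GAS motif. A match is a run of letters and was not tested for binding.

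Sequencing depth was 19287279 to 20567123 counted fragments in the control libraries and 20839671 to 24541205 in the MAARS gapmeR libraries. MAARS itself stood at 13.1 ± 1.36 CPM (counts per 1000000, scaled by TMM; SD, n = 4) with the control gapmeR and at 6.82 ± 0.844 CPM with the MAARS gapmeR (log2 fold change -0.95, SE 0.112; edgeR quasi-likelihood test, adjusted p = 5.8e-05). Over all genes tested the median log2 fold change was 0.01.

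The 9 restriction factors together took 0.290 to 0.408% of counts in the control libraries and 0.0781 to 0.117% in the MAARS gapmeR libraries. Each of the 9 was lower in all 4 MAARS gapmeR libraries than in any control library, a separation seen in the same direction in 22.8% of genes tested. By the edgeR test described below, 45.4% of all genes tested were called in either direction (47.0% of the calls were higher, and 60.4% with upper-quartile in place of TMM scaling), and nothing is read from the members' count against these shares. The log2 fold changes ran from -3.35 for Rsad2 to -0.46 for Apobec3 with a median of -1.99, and 6 of the 9 were at or below -1, against 3.16% of genes tested. In bulk RNA, fewer expressing cells and less RNA per cell cannot be told apart.

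**Figure D1:**
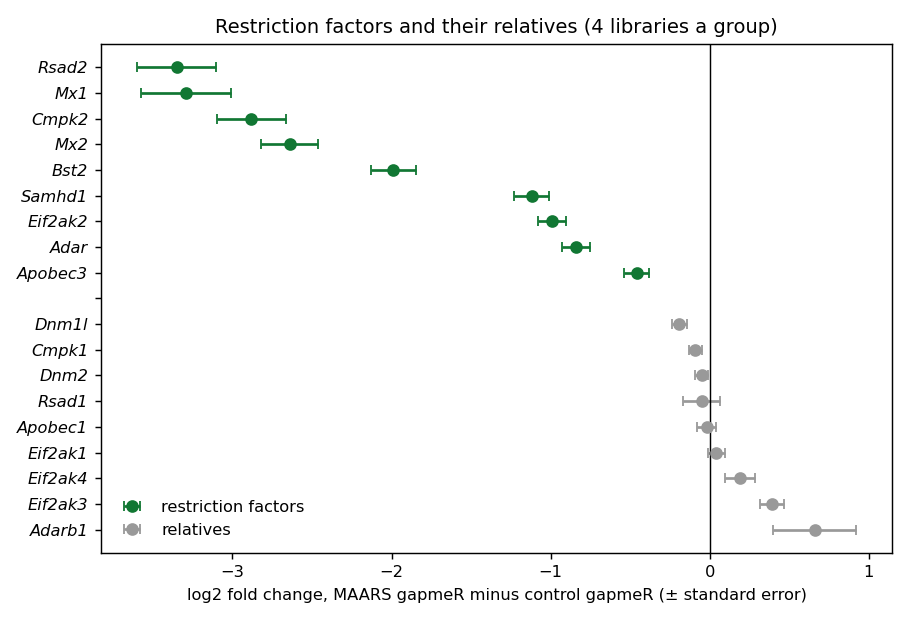
Log2 fold change (MAARS gapmeR minus control gapmeR on the log2 scale, edgeR, 4 libraries a group) of the 9 restriction factors (green) and of 9 relatives (grey), with bars of 1 standard error. The restriction factors run from -3.35 (Rsad2) to -0.46 (Apobec3), and the relatives from -0.19 (Dnm1l) to 0.66 (Adarb1).

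The Mx proteins assemble around viral nucleocapsids and stall them. With the control gapmeR, Mx1 gave 189 CPM in replicate 2, 238 in replicate 5, 386 in replicate 6 and 349 in replicate 7. With the MAARS gapmeR it gave 17.6 CPM in replicate 9, 29.9 in replicate 11, 45.2 in replicate 13 and 26.0 in replicate 15. The lowest control library was 4.17 times the highest MAARS gapmeR library, so the groups were far apart, although the control libraries themselves spread 2.05-fold. The group means were 290.3 ± 92.5 and 29.7 ± 11.6 CPM (SD, n = 4), a log2 fold change of -3.29 (SE 0.284), with 10.2% of the control level left.

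Mx2 lies next to Mx1, 72.4 kb away (Mx1 at chr16:97447035-97462907, minus strand; Mx2 at chr16:97535308-97560900, plus strand; GRCm38). Its levels were 27.3, 27.4, 36.3 and 33.5 CPM in the control libraries and 2.98, 5.29, 6.62 and 5.03 CPM in the MAARS gapmeR libraries, in the same replicate order, which is kept for every gene below. Here too the groups did not come near each other, and replicate 9 was the lowest library for both genes. The means were 31.1 ± 4.52 and 4.98 ± 1.5 CPM, a log2 fold change of -2.64 (SE 0.181).

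Both Mx genes are defective in many laboratory mouse strains. RefSeq lists both as transcribed pseudogenes, whereas GENCODE M21 lists Mx1 as protein coding and Mx2 as a polymorphic pseudogene, so these values are RNA levels and say nothing of protein. Of the 31-base words in the exons, 8.67% of Mx1 and 7.96% of Mx2 also occur in another gene, mainly the other Mx gene. How shared reads were counted is not given in the sources used here, so a small share of their counts is uncertain. Per length, Mx1 was 6.60 to 10.2 times Mx2 in the control libraries and 4.93 to 6.52 times with the MAARS gapmeR.

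Rsad2 and Cmpk2 are neighbours transcribed away from each other, 12.8 kb apart (Rsad2 at chr12:26442746-26456452, minus strand; Cmpk2 at chr12:26469204-26479837, plus strand). Rsad2 (viperin) is a radical SAM enzyme that turns CTP into the chain terminator ddhCTP, and Cmpk2 is the mitochondrial kinase that makes CDP from CMP. Rsad2 stood at 778, 944, 1099 and 1069 CPM in the control libraries and at 56.7, 109, 143 and 72.6 CPM in the MAARS gapmeR libraries. It had both the lowest log2 fold change of the 9, -3.35 (SE 0.249), and the widest gap between groups, its lowest control library being 5.45 times its highest MAARS gapmeR library. The means were 972.6 ± 146.0 and 95.4 ± 38.6 CPM (SD, n = 4), so 9.81% of the control level was left.

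Cmpk2 gave 219, 280, 339 and 308 CPM in the control libraries and 25.6, 45.5, 54.3 and 30.1 CPM in the MAARS gapmeR libraries. Replicate 6 was the highest control and replicate 13 the highest MAARS gapmeR library, as for Rsad2, and the groups did not overlap. The means were 286 ± 51.1 and 38.9 ± 13.4 CPM, a log2 fold change of -2.88 (SE 0.216). Per length, Rsad2 was 3.12 to 3.42 times Cmpk2 in the control libraries and 2.13 to 2.53 times with the MAARS gapmeR, ranges that did not overlap.

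Bst2 (tetherin) holds budding enveloped virions on the cell surface. It was read at 706, 761, 896 and 878 CPM in the control libraries and at 151, 224, 253 and 187 CPM in the MAARS gapmeR libraries. Every control library exceeded every MAARS gapmeR library, the closest pair differing 2.79-fold. The means were 810.0 ± 91.6 and 203.6 ± 44.4 CPM, a log2 fold change of -1.99 (SE 0.141). Bst2 is also the surface antigen of plasmacytoid dendritic cells, whose 6 other markers summed to at most 0.611 CPM in the control and 0.331 CPM in the MAARS gapmeR libraries.

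Samhd1 is the dNTP triphosphohydrolase that starves reverse transcription in non-dividing cells. Its levels were 600, 754, 869 and 784 CPM in the control libraries and 327, 329, 405 and 318 CPM in the MAARS gapmeR libraries. Replicate 13 stood above the other 3 MAARS gapmeR libraries, which lay close together, and still below every control library. The means were 752 ± 112 and 345 ± 40.6 CPM, a log2 fold change of -1.12 (SE 0.109).

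Apobec3 is the only APOBEC3 gene of the mouse and encodes a cytidine deaminase packaged into retroviral particles. It showed the smallest difference of the 9, with 42.5, 48.9, 56.5 and 54.0 CPM in the control libraries and 35.9, 36.1, 38.0 and 37.0 CPM in the MAARS gapmeR libraries. The groups were separated by only 1.12-fold at their nearest, and the MAARS gapmeR libraries were nearly level while the controls were not. The means were 50.5 ± 6.18 and 36.8 ± 0.959 CPM, a log2 fold change of -0.46 (SE 0.0793). Of its exon bases 7.15% overlap D730005E14Rik on the same strand, and 12.1% of its 31-base words occur in other genes, so part of its count is uncertain.

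Eif2ak2 (PKR) phosphorylates eIF2α on binding dsRNA and so halts protein synthesis. It gave 186, 197, 210 and 195 CPM in the control libraries and 83.2, 109, 113 and 90.8 CPM in the MAARS gapmeR libraries. The control libraries were the tightest of any of the 9 genes, 1.13-fold from lowest to highest, and all lay above the MAARS gapmeR libraries. The means were 197 ± 9.84 and 99.1 ± 14.4 CPM, a log2 fold change of -0.99 (SE 0.089).

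Adar (ADAR1) deaminates adenosine in dsRNA to inosine, which keeps self RNA from being sensed. It was measured at 156, 168, 189 and 180 CPM in the control libraries and at 81.3, 104, 108 and 94.0 CPM in the MAARS gapmeR libraries. Again no library of one group reached the range of the other. The means were 173 ± 14.5 and 96.6 ± 11.7 CPM, a log2 fold change of -0.84 (SE 0.0867). Of its exon bases 16.8% overlap Chrnb2 on the opposite strand, and whether counting used strand is not given in the sources used here.

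**Figure D2:**
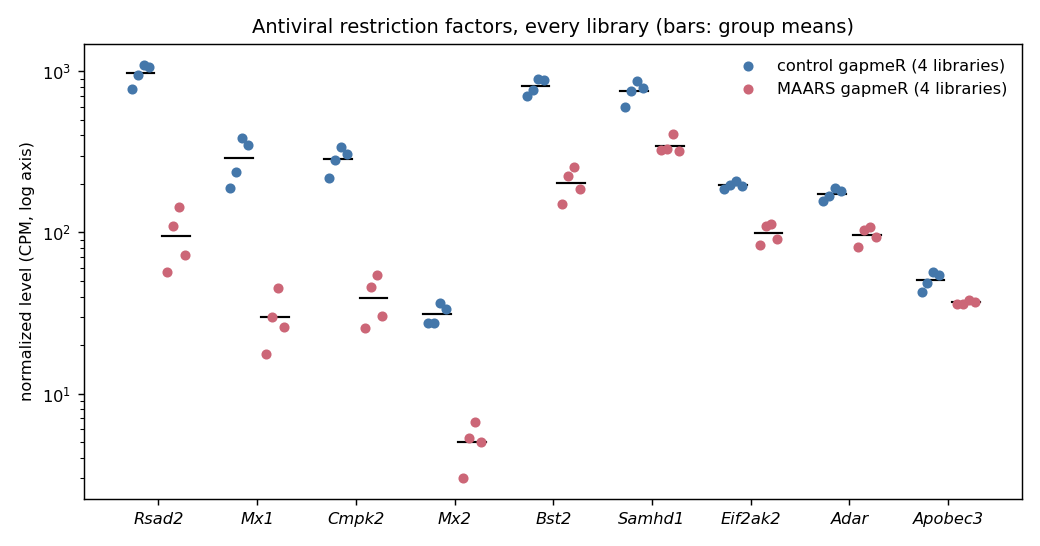
TMM-normalised CPM (log axis) of each restriction factor in the 4 control and 4 MAARS gapmeR libraries, 1 point per library, with a black bar at each group mean. In all 9 genes the groups do not overlap, most narrowly for Apobec3 (42.5 against 38.0 CPM).

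To compare genes with each other, CPM was divided by exon length in kb. That length was the union of the exons of all GENCODE M21 transcripts of a gene, which lowers the value of genes with many transcripts. It was 9.454 kb for Apobec3 (20 transcripts) and 3.614 kb for Mx2 (5 transcripts). In the control libraries Bst2 had by far the highest level per length (897 CPM per kb), followed by Rsad2 (224), Samhd1 (82.2), Mx1 (76.7), Cmpk2 (68.8), Eif2ak2 (38.5), Adar (21.3), Mx2 (8.61) and Apobec3 (5.34). The library ranges of Samhd1, Mx1 and Cmpk2 overlapped one another, and no other neighbours in that order overlapped. With the MAARS gapmeR the levels per length were 225 CPM per kb for Bst2, 37.7 for Samhd1, 22.001 for Rsad2, 19.4 for Eif2ak2, 11.9 for Adar, 9.34 for Cmpk2, 7.84 for Mx1, 3.89 for Apobec3 and 1.38 for Mx2. Here the range of Rsad2 overlapped that of Eif2ak2, those of Adar, Cmpk2 and Mx1 overlapped one another, and the other neighbours stood apart. Mx1 and Cmpk2 thus stood above Eif2ak2 and Adar in the control libraries, and below Eif2ak2 with the MAARS gapmeR. Their ranges overlapped that of Adar there, but within each MAARS gapmeR library both were below Adar. The closest case was Cmpk2 in replicate 13 (13.047 against 13.263 CPM per kb for Adar). Rsad2 came into the range of Eif2ak2, and Mx2 moved below Apobec3. The order of Mx2 and Apobec3 depends on the length used. In CPM not divided by length, Mx2 was below Apobec3 in the control group (31.1 against 50.5) and with the MAARS gapmeR (4.98 against 36.8).

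**Figure D3:**
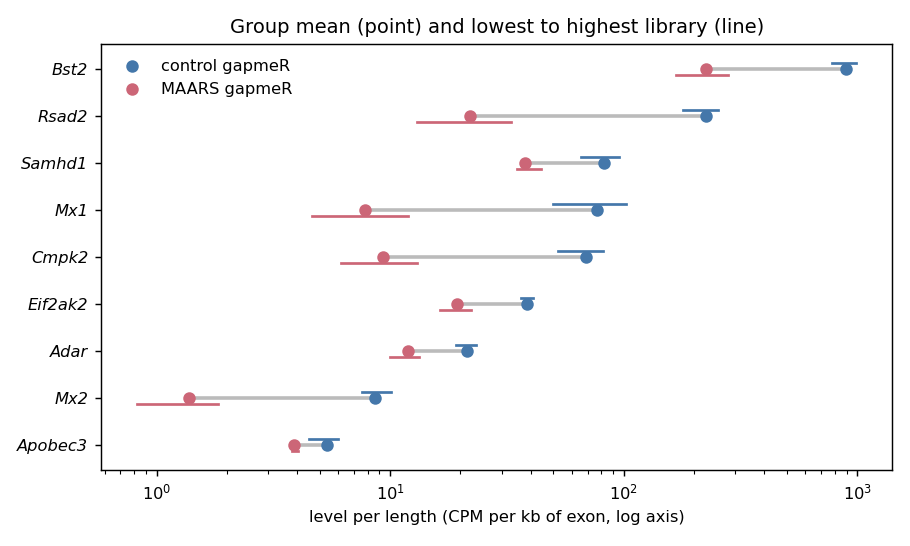
Level per length (CPM per kb of exon, log axis) of the 9 genes, with a point at each group mean, a coloured line from the lowest to the highest library and a grey line joining the means of the groups. Bst2 leads in both groups (897 and 225), and Rsad2, next in the control group at 224, lies below Samhd1 with the MAARS gapmeR.

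Within each group the libraries also differed from one another, a spread the choice of genes did not use. As deviations from the group mean of log2 CPM, the average over the 9 genes was -0.27, -0.07, 0.21 and 0.12 across the control libraries. Across the MAARS gapmeR libraries it was -0.39, 0.13, 0.37 and -0.11. Control replicate 2 was the lowest control library for all 9 genes and replicate 6 the highest. MAARS gapmeR replicate 13 was the highest of its group for all 9, and replicate 9 was the lowest for all but Samhd1. Mx1 moved most, by -0.56 to 0.47 among controls and by -0.67 to 0.69 with the MAARS gapmeR, while Apobec3 stayed within -0.03 to 0.05 in the latter.

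Over these 8 deviations, Pearson's r between pairs of the 9 genes had a median of 0.885 across 36 pairs, from 0.38 (Apobec3 and Eif2ak2) to 0.99 (Rsad2 and Cmpk2). The points share library, depth and scaling, so this is a description. Against the mean of the other members, r was 0.98 for Bst2 and Adar, 0.97 for Mx1 and Cmpk2, 0.95 for Rsad2, 0.91 for Mx2 and Eif2ak2, 0.77 for Samhd1 and 0.62 for Apobec3. The genes whose deviations were most like the mean of the 9 were Phf11a (r = 0.999), Trim30a (0.998), Phf11d (0.996), Ly6e (0.995) and Lgals3bp (0.994). Of the 13042 other genes tested, 170 (1.3%) had r of at least 0.9. The log2 fold changes of these 5 genes were -3.53, -1.44, -2.78, -2.23 and -1.08.

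**Figure D4:**
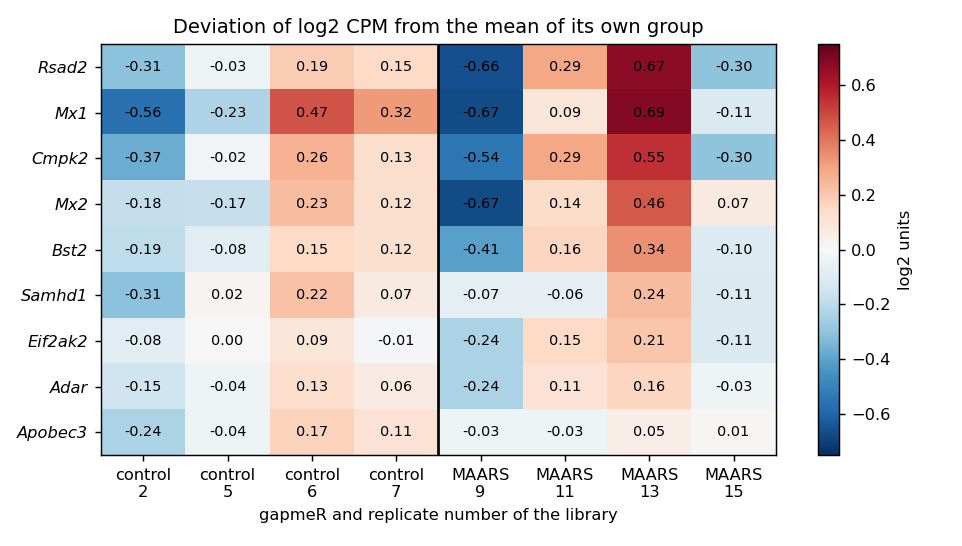
Heat map of the deviation of log2 CPM from its own group's mean (log2 units, red above and blue below), with genes as rows, libraries as columns and a black line between the groups. Control replicate 2 and MAARS gapmeR replicate 9 sit low (mean of the genes -0.27 and -0.39) and replicates 6 and 13 high (0.21 and 0.37).

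Relatives of the restriction factors by protein family or by reaction catalysed were mostly not called. Of 9 tested, 1 was called lower and 1 higher (edgeR quasi-likelihood test, Benjamini-Hochberg adjusted p under 0.05), where 24.0% of all genes tested were called lower and 21.3% higher, and their median log2 fold change was -0.02. Dnm1l, the dynamin of mitochondrial fission, fell by 0.19 on the log2 scale (SE 0.0496, adjusted p = 0.0089), a call lost with upper-quartile scaling (adjusted p = 0.0515). Eif2ak3 (PERK), the eIF2α kinase of the endoplasmic reticulum, rose by 0.39 (SE 0.0752, adjusted p = 0.00163). The nucleotide kinase Cmpk1 gave -0.09, the radical SAM protein Rsad1 -0.05 and the RNA-editing deaminase Apobec1 -0.02, none of which passed the test. The other relatives not called were the kinases Eif2ak1 (0.04) and Eif2ak4 (0.19), the editing enzyme Adarb1 (0.66) and the endocytic dynamin Dnm2 (-0.05). With upper-quartile scaling Eif2ak4 (adjusted p = 0.0437) and Adarb1 (adjusted p = 0.0413) were called higher. Apobec1 stood at 549 ± 44.6 CPM with the control gapmeR and 543 ± 16.1 CPM with the MAARS gapmeR.

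Upstream, the RNA of the interferon ligands was close to absent in both groups. Of 21 ligand genes, 16 had 0 counts in all 8 libraries, and a count of 0 in the shallowest library allows a level of up to 0.156 CPM. The others never exceeded 2 counts in a library, and Ifnb1 had 3 counts over the control libraries and 2 over the MAARS gapmeR libraries. Of the 7 receptor, kinase and ISGF3 genes, 4 were called lower and 1 higher, with a median log2 fold change of -0.12. Those were 57.1% and 14.3%, against 24.0% and 21.3% of all genes tested. Stat2 fell from 405 ± 50.9 to 142 ± 30.6 CPM (log2 fold change -1.52, SE 0.139, edgeR adjusted p = 1.12e-05), and Irf9 fell from 122 ± 6.00 to 74.7 ± 13.3 CPM (-0.71, SE 0.103, adjusted p = 0.00024). Jak1 was called at the edge of the threshold (-0.12, SE 0.0468, adjusted p = 0.049988), and the call was lost in 9 of 14 alternative fits. The receptor chain Ifnar1 rose from 142 ± 7.75 to 174 ± 6.10 CPM (0.29, SE 0.0496, adjusted p = 0.000649), while Ifnar2 (-0.12) and Tyk2 (-0.09) did not pass the test. Stat2 and Irf9 on one side and Ifnar1 on the other thus went in opposite directions in the same libraries.

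Among other restriction factors, 12 of 22 tested were called lower and 5 higher, with a median log2 fold change of -0.29. Those were 54.5% and 22.7%, against 24.0% and 21.3% of all genes tested. Isg20, an exonuclease that degrades viral RNA, fell from 31.5 ± 11.5 to 2.501 ± 0.548 CPM (-3.64, SE 0.275, edgeR adjusted p = 5.27e-06). Znfx1, a helicase that senses viral RNA at mitochondria, fell from 811 ± 107 to 247 ± 52.7 CPM (-1.72, SE 0.142, adjusted p = 7.12e-06). Serinc5 and Serinc3, membrane proteins that lower the infectivity of retroviral particles, went the other way. Serinc5 rose from 19.2 ± 3.24 to 42.5 ± 5.24 CPM (1.15, SE 0.116, adjusted p = 1.91e-05) and Serinc3 from 742 ± 64.5 to 1106 ± 114 CPM (0.58, SE 0.0812, adjusted p = 0.000192).

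The machinery around each factor was then counted, beside 24.0% of all genes tested called lower and 21.3% called higher. In a list of dynamins, mitofusins, Opa1 and atlastins, which leaves out the Mx genes and the interferon-inducible guanylate-binding proteins of the same superfamily, 3 of 8 tested genes were lower and 0 higher, the largest difference among these called genes being -0.24 (Atl2), with a median of -0.06, and Mfn2, which fuses mitochondria, fell by 0.21 (SE 0.0414, edgeR adjusted p = 0.00201). With upper-quartile scaling 1 was lower and 1 higher. Around the radical SAM enzyme viperin, 6 of 15 radical SAM and cytosolic iron-sulfur assembly genes were lower and 3 higher, with a median of -0.12. The count depended on the fit. Under other scalings, tools and filters 4 to 6 were lower and 3 to 4 higher. When each library was left out 4 to 5 were lower and 2 to 3 higher. The assembly factors Nubp2 (-0.47, SE 0.0571, adjusted p = 7.39e-05) and Ciao1 (-0.42, SE 0.0527, adjusted p = 9.13e-05) fell, whereas Elp3, of the Elongator complex that modifies tRNA, rose by 0.28 (SE 0.0597, adjusted p = 0.00281).

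Genes of nucleotide supply, the substrate of Samhd1, Cmpk2 and Rsad2, were mixed, with 5 of 22 lower, 4 higher and a median of 0.02. Those shares (22.7% and 18.2%) lay near the 24.0% and 21.3% of all genes tested. Dck, which phosphorylates deoxycytidine, fell from 157 ± 17.9 to 64.0 ± 15.2 CPM (-1.29, SE 0.144, edgeR adjusted p = 3.89e-05), and the mitochondrial nucleotidase Nt5m fell by 0.55 on the log2 scale (SE 0.0729, adjusted p = 0.00012). The mitochondrial adenylate kinase Ak3 rose by 0.43 (SE 0.0607, adjusted p = 0.000192) and thymidine kinase Tk1, made by cells in S phase, by 0.94 (SE 0.189, adjusted p = 0.00204).

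In the eIF2 arm on which PKR acts, 7 of 17 genes were lower (41.2%) and 2 higher (11.8%), with a median of -0.04. Over all genes tested, 24.0% were called lower and 21.3% higher. Eif2b4 and Eif2b2 encode subunits of eIF2B, the exchange factor that phosphorylated eIF2 blocks. Eif2b4 fell by 0.70 (SE 0.0528, edgeR adjusted p = 5.27e-06) and Eif2b2 by 0.54 (SE 0.0522, adjusted p = 1.44e-05), and Prkra (PACT), a protein activator of PKR, rose by 0.25 (SE 0.0712, adjusted p = 0.0133). Of 13 deaminase and dsRNA-binding genes, 3 were lower (23.1%, near the share of all genes) and 1 higher (7.69%), with a median of 0.01. With upper-quartile scaling 4 were higher. The microprocessor partners split, with Dgcr8 falling by 0.29 (SE 0.063, adjusted p = 0.00347) and Drosha rising by 0.26 (SE 0.0609, adjusted p = 0.0046).

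**Figure D5:**
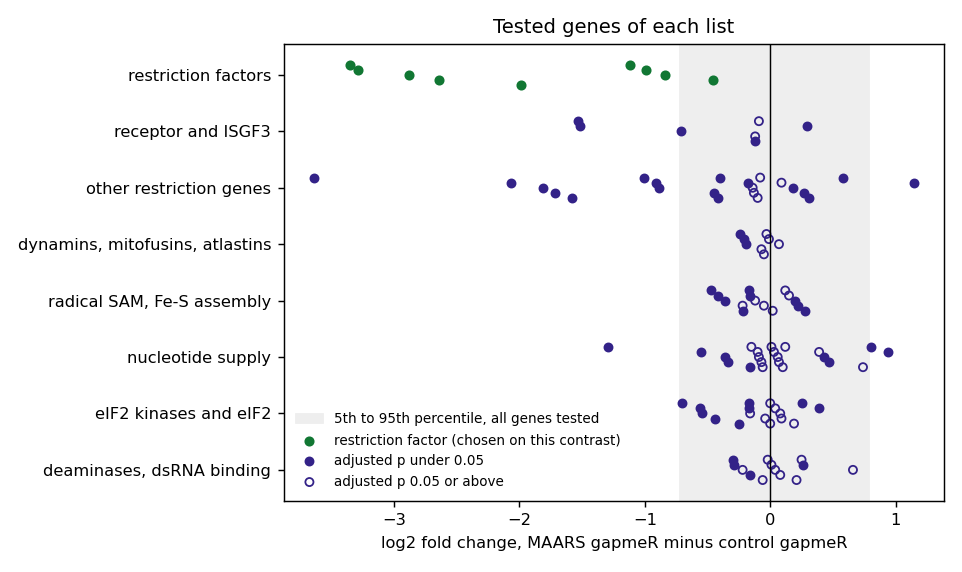
Log2 fold change of every tested gene among the 9 restriction factors (green, chosen knowing this contrast) and in 7 lists of related genes, 1 point per gene, filled where the adjusted p was under 0.05. The grey band runs from the 5th to the 95th percentile of all genes tested (-0.72 to 0.79), and of the restriction factors only Apobec3 (-0.46) lies inside it.

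The nearest tested gene on each side of every restriction factor was read as well, passing over the restriction factors themselves (Mx1 and Mx2, and Rsad2 and Cmpk2, are each other's neighbours). Of these 14 flanking or overlapping genes, 5 were called lower, 3 higher and 6 neither (edgeR, adjusted p under 0.05), with a median log2 fold change of 0.00. Over all genes tested, 24.0% were called lower and 21.3% higher. Cbx7, a Polycomb protein whose exons overlap Apobec3 on the opposite strand, rose by 1.40. Cbx6, 57.0 kb from Apobec3, rose by 0.69, Mvb12a, 5.5 kb from Bst2, fell by 0.30, and Gm6548, 0.6 kb from Eif2ak2, fell by 0.86. The calls of Rbl1 beside Samhd1 (-0.32), Pmvk on the lower side of Adar (-0.25) and Sox11, 877.8 kb from Rsad2 (1.09), were each lost in at least 1 alternative fit. Sox11 was barely expressed, at 0.427 ± 0.164 CPM with the control gapmeR and 0.912 ± 0.233 CPM with the MAARS gapmeR. Gm26637, which overlaps Eif2ak2 exons on the opposite strand, was lower by a log2 fold change of -0.59, and its reads cannot be told apart from those of Eif2ak2 if strand was not used.

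Markers of other cell types were read beside these results. The 8 macrophage markers were all detected and summed to 13836 to 17118 CPM in the control and 17011 to 20241 CPM in the MAARS gapmeR libraries. Most of both sums was Lyz2 (means of 9402 and 13170 CPM), so they say little of the other markers. Of the 8 markers, 5 were called higher and 2 lower, against 21.3% and 24.0% of all genes tested. The lower ones were the Fc receptor gene Fcgr1 (-2.09) and Cd68 (-0.34). The 5 conventional dendritic cell markers summed to 0.973 to 2.49 CPM in the control and 1.34 to 1.84 CPM in the MAARS gapmeR libraries, and the 5 B cell markers to 1.89 to 5.06 and 2.65 to 4.12 CPM. The 5 T cell markers summed to 66.0 to 85.7 and 40.7 to 51.6 CPM, nearly all of it Cd4 (74.0 and 46.2 CPM), with Cd3e near 0. The 6 neutrophil markers summed to 22.8 to 62.5 and 25.5 to 35.1 CPM, and the 5 fibroblast markers to 235 to 529 and 373 to 624 CPM. The part of these cells in the differences above was not tested.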

How the data were processed

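RNA-Seq of 8 libraries (ribosomal RNA depleted, paired reads of 100 nt) was used. Per the labels and methods, the authors trimmed reads with Trimmomatic 0.36, aligned them to GRCm38 with STAR 2.5.2b and deposited raw counts per Ensembl release 79 gene from featureCounts (Subread 1.5.2). Strand and multimapping settings are not given in the sources used here.

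Counts were filtered with filterByExpr (minimum count 10, minimum total 15), scaled by TMM and tested in edgeR 4.0.16 (R 4.3.3) by quasi-likelihood with Benjamini-Hochberg adjustment over 13051 genes, called at an adjusted p under 0.05. Groups came from the sample labels. Standard errors are the log2 fold change over the square root of F. Log2 CPM used a prior count of 2, and exon lengths were the union of exons over all GENCODE M21 transcripts of a gene. Alternatives were RLE and upper-quartile factors, DESeq2 1.42.0, limma-voom 3.58.1, no filter, a mean count of at least 10, and leaving out each library. On simulated data for the 13051 genes, 83.2% of 197 changed genes were called, 6.82% of calls were unchanged genes, and 0 genes were called when none changed. Replicate libraries of a group differed by more than sampling noise (chi-square per gene 4.24 to 15.1 over 12 pairs). The limit given for a count of 0 covers counting error only, whereas standard errors include the spread between libraries.

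The restriction factors and all gene lists were chosen with earlier results of these data known. Beside them the text names the relatives, in each list up to 2 called genes in each direction with the lowest p-value, flanking genes that were called, and the 5 genes most like the members within groups. Jak1, Ifnar2, Tyk2 and Irf9, Atl2, Fcgr1, Cd68 and Cd4 were named after their values were seen. Lyz2 was too, and it is not among the refits counted below. Values of some list genes are not reported here.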

Additional observations from a re-analysis of the deposited data

Results flagged for a closer look

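The values of 53 named genes were checked in both groups, 106 groups of 4 libraries, for a library standing apart from the other 3 (Dixon's ratio above its critical value for 4 samples). Chance flags about 1 group in 20, and 4 groups were flagged. Samhd1, 1 of the 9 restriction factors, was flagged for MAARS gapmeR replicate 13 (ratio 0.874), at 405.5 CPM against 318.2 to 329.2 CPM in the other 3 libraries. Without that library its log2 fold change was -1.21, against -1.12 with it. Tyw1, a radical SAM enzyme of tRNA modification, was flagged for its highest control library, replicate 5 (ratio 0.914, 24.9 against 22.4 to 22.6 CPM). Prkra was flagged for its lowest control library, replicate 7 (ratio 0.845, 22.1 against 25.1 to 25.6 CPM). Pmvk, a neighbour of Adar, was flagged for its lowest MAARS gapmeR library, replicate 9 (ratio 0.857, 9.84 against 11.4 to 11.7 CPM).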

How the results depend on the processing

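For the 9 restriction factors all 126 refitted log2 fold changes (14 alternatives each) stayed negative, and their median ran from -2.01 to -1.93 under other scalings, tools and filters and from -2.12 to -1.88 when each library was left out. On leaving out a library Rsad2 ran from -3.61 to -3.17, Mx1 from -3.56 to -3.12 and Apobec3 from -0.53 to -0.40. With upper-quartile factors the median of all genes moved by 0.063 and 60.4% of calls were higher, against 47.0% with TMM. In that fit the relatives had 0 lower and 3 higher, the dynamin list had 1 gene lower and 1 higher, and the deaminase and dsRNA-binding list had 4 higher, and the cause was not tested. Leaving out a library gave 1 to 2 genes higher among the relatives and in the deaminase list, with 2 in both without control replicate 5 or MAARS gapmeR replicate 9, and 2 among the relatives without MAARS gapmeR replicate 15. The relatives and the other named genes were added after the data were seen. Of 728 refits of named genes that are not restriction factors, no called direction reversed (the uncalled Apobec1, Dnm2 and Rsad1, all near 0, changed sign in some), 27 lost a call (Jak1, Pmvk, Rbl1, Atl2, Dnm1l and Sox11) and 7 gained one (Adarb1, Eif2ak4, Ifnar2 and Tyk2). Jak1 ran from adjusted p = 0.0181 to 0.287 over the alternatives (edgeR unless a tool is named), the highest with upper-quartile factors. The shorter motif, chosen after the data were seen, raised the promoters with a match from 4 to 5. No paired analysis was possible because the groups share no replicate numbers. The interferon ligands, at 0 to 2 counts in a library, were too low to compare at this depth.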

Other observations

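The ISRE core (GAAA, any pair of bases, GAAA) was also counted in the promoter windows of the other tested genes, with the 9 restriction factors left out. It was present in 6.77% of 2481 genes called lower, 3.0% of 2102 called higher and 3.17% of 5241 not called. Among 289 genes lower by at least 1 on the log2 scale the share was 25.3%, and among 195 genes higher by at least 1 it was 2.05%. In the same 289 and 195 genes the shorter motif GAAANNGAA was present in 29.8% and 4.62%, and the GAS motif in 12.8% and 5.64%. Each of these other motifs was present in 8.07% of genes not called. A gene with several listed starts had several windows, and these shares are given as counts with no test.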
